A study of Homo sapiens with 6 samples.

Results

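Expression of the enzymes that add methyl groups to histone lysines, or take them off, was compared between carfilzomib-resistant LP-1/Cfz cells and parental LP-1 cells. Members were taken by symbol: genes whose names begin with KMT, KDM, SETD or SMYD and a number, together with EHMT1, EHMT2, SUV39H1, SUV39H2, EZH1, EZH2, EED, SUZ12 and DOT1L, read by probe sets that name a single gene. This gave 143 of the 54613 probe sets of the array and 49 of 19775 genes. Of the 49, 47 encode proteins and 2 are RNA genes named after a neighbour, KDM7A-DT and KMT2E-AS1. ASH1L, KDM4E and a few other genes with such names were not analysed here.

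LP-1 is a human multiple myeloma cell line, that is, a line of malignant plasma cells. It carries a translocation between chromosomes 4 and 14 that drives NSD2, itself a histone methyltransferase. LP-1/Cfz was derived from it by growth in stepwise higher doses of carfilzomib, a proteasome inhibitor. The labels give the line as resistant to 12 nM of the drug and profiled after 1 week without it, while LP-1 was kept without drug. For the medium of both they give 4% serum, where the study's methods state a higher content, and which of these applied is not known here. Each of the 3 LP-1/Cfz and 3 LP-1 samples was hybridised to 1 Affymetrix U133 Plus 2.0 array. LP-1/Cfz is a single selected line, and no label says that the 3 samples of a line came from separate cultures. The spread that the p-values rest on may thus be technical.

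Methyl groups on histone lysines mark the state of chromatin, and the effect depends on the residue. Methylation of lysine 4, 36 or 79 of histone H3 is found at active genes. Trimethylation of H3 lysine 27, laid down by Polycomb repressive complex 2 (PRC2), and methylation of H3 lysine 9 go with silent chromatin, while lysine 20 of histone H4 is methylated in step with the cell cycle and in heterochromatin. Most of the writers carry a SET domain. The erasers are either flavin-dependent oxidases of the LSD family or oxygenases with a JmjC domain.

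The deposited values are log2 intensities that had been centred probe set by probe set on an unstated baseline. They can be compared between arrays, but the level of a gene, and so whether the lines express the markers of plasma cells at all, cannot be read from them. Values are therefore given as log2 values less the mean of the LP-1 arrays for the same gene or probe set, and a log2 fold change is the LP-1/Cfz mean minus the LP-1 mean. A gene is the mean of its single-gene probe sets. It was called changed at an adjusted p under 0.05 in a limma fit over all genes, and log2 fold changes are followed by the standard error (SE) of that fit. No exact permutation test of 3 against 3 arrays can give a p under 0.1. One LP-1/Cfz array, replicate 3, stood apart from the others: its values spanned an interquartile range of 0.338, where the other 5 arrays had 0.230 to 0.264. It correlated with the other LP-1/Cfz arrays at 0.891 and 0.903, whereas those correlated with each other at 0.941. Over the member genes its mean absolute deviation from the group mean was 0.0663, against 0.0338 to 0.0433 on the other arrays. Counts are given without this array where they carry the account.

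Of the 49 member genes, 10 fell in LP-1/Cfz cells, 1 rose and 38 did not pass the test. The largest fall was 2.04-fold, in KDM2B, an H3 lysine 36 demethylase that recruits a Polycomb complex to CpG islands. EZH2, the catalytic subunit of PRC2, and KMT5A, the monomethyltransferase of H4 lysine 20, were 1.33-fold and 1.31-fold lower. SETD1B and SETD2, writers of the active marks on H3 lysines 4 and 36, were 1.26-fold and 1.24-fold lower. The gene that rose was KDM6B, a demethylase of H3 lysine 27. Of the 31 genes of writers, with the PRC2 core and other SET domain genes, 8 fell and 0 rose, and of the 16 eraser and JmjC genes 2 fell and 1 rose.

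The share of members that fell was 20.4%, where 10.0% of all genes fell, and the share that rose was 2.04%, where 6.72% of all genes rose. In either direction 22.4% of members passed, where 16.7% of all genes did. By probe set, 17 of 143 fell (11.9%, against 6.76% of all probe sets) and 3 rose (2.10%, against 4.25%), so that 14.0% passed in either direction where 11.0% of all probe sets did. The 3 LP-1/Cfz arrays all lay below the 3 LP-1 arrays for 16 member genes (32.7%, against 19.3% of all genes) and all above them for 5 (10.2%, against 16.6%). The median log2 fold change of the 49 genes was -0.02, beside 0.02 over all genes. Most members thus lay close to no difference, and KDM2B alone reached the 1.7-fold cutoff that the methods state. Without LP-1/Cfz replicate 3, 9 member genes passed, 8 of the 11 and KDM5A (higher). Over the 6 fits that leave out 1 array in turn, 5 to 9 of the 49 member genes passed. Of the 19775 genes, 2080 to 3183 passed in these fits (10.5% to 16.1%). The member counts in these fits were close to what such shares would give for 49 genes. KDM2B, EZH2, KMT5A, SETD1B and SETD2 passed in all 6 of these fits. The other 6 genes, SETD9, SUV39H2, SUV39H1, KDM2A, KMT2A and KDM6B, each lost the call in 4 or more of them.

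**Figure D1:**
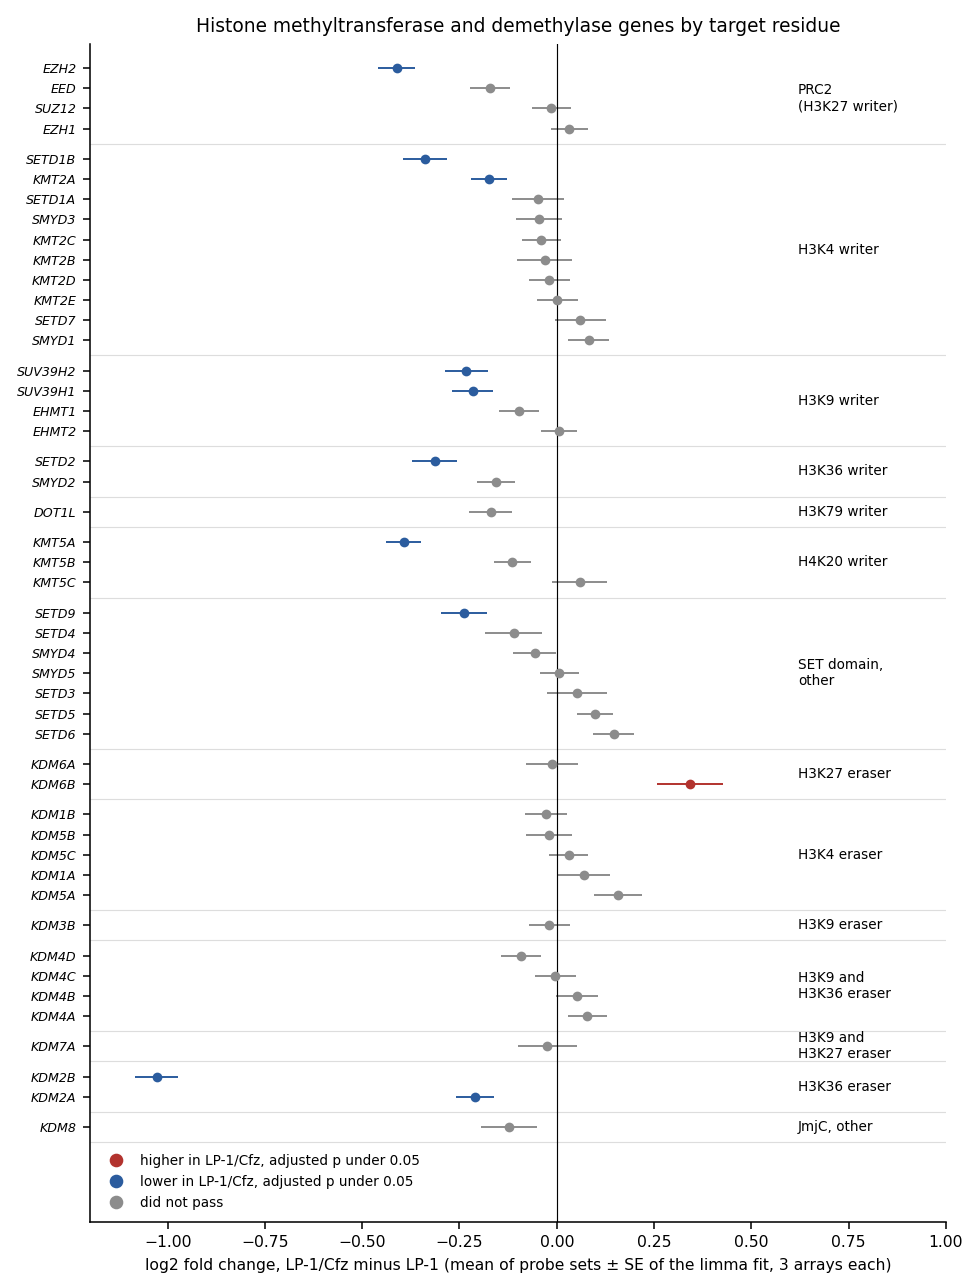
Log2 fold change of each protein-coding member gene, LP-1/Cfz minus LP-1 (x axis), with genes in rows grouped by the residue their products act on. Points are means over a gene's probe sets, bars are SEs of the limma fit with 3 arrays in each line, and colour gives the call. KDM2B lies apart at -1.03, KDM6B is the red point at 0.34, and most genes lie near 0.

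PRC2 was read through its catalytic subunits EZH2 and EZH1 and its core subunits EED and SUZ12. EZH2, on its single probe set, had -0.37, -0.42 and -0.45 on the LP-1/Cfz arrays, against -0.02, 0.00 and 0.02 on the LP-1 arrays. The groups did not overlap, and the 3 LP-1/Cfz arrays lay within 0.1 of each other. The log2 fold change was -0.41 (SE 0.0482, adjusted p = 0.00104), a 1.33-fold lower signal. This probe set bears the suffix _s_at, given where probes can match more than 1 transcript. EZH1, the paralogue that is more common in cells that do not divide, had 0.02, 0.07 and 0.00 in LP-1/Cfz, against 0.00, -0.03 and 0.03 in LP-1. Its arrays overlapped, and the log2 fold change of 0.03 had a 95% confidence interval of -0.08 to 0.14.

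EED, the subunit that binds trimethylated lysine 27 and stimulates the enzyme, had -0.23, -0.13 and -0.15 on the LP-1/Cfz arrays and 0.03, -0.01 and -0.02 on the LP-1 arrays. These groups were apart too, yet EED did not pass (log2 fold change -0.17, adjusted p = 0.0556). It lies at the edge of the threshold, since 1 of its 2 probe sets fell (-0.23, adjusted p = 0.0478). SUZ12, which holds the complex together, had -0.04, -0.02 and 0.02 in LP-1/Cfz and -0.04, -0.01 and 0.06 in LP-1. Its log2 fold change was -0.01 (95% confidence interval -0.13 to 0.10), and its 3 probe sets ran from -0.15 to 0.19. A further probe set shared with the pseudogene SUZ12P1 had -0.10 and did not pass. Of these 4 PRC2 genes EZH2 alone was called, and 3 had no call. EED had a 95% confidence interval of -0.29 to -0.05. It was called in 4 of 7 other settings and in 0 of the 6 fits without 1 array. The calls therefore do not show that EZH2 and EED differ.

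E2F factors bind a short motif in front of many genes of dividing cells, and whether they bear on the difference in EZH2 was not tested. The promoters of the EZH paralogues are shown with this motif. They are RefSeq sequences of assembly GRCh38.p14, 250 bases before the annotated start and 50 after it, in the direction of the gene, with an E2F-type motif in capitals. EZH2 lies at chr7:148884242-148884541 (minus strand) and EZH1 at chr17:42744991-42745290 (minus strand).
EZH2: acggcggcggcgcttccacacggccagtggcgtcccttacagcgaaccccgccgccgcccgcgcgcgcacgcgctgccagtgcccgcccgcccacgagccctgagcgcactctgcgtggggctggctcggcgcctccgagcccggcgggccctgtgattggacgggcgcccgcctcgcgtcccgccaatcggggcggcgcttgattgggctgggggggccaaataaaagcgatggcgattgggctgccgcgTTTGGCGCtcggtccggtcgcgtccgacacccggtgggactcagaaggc
EZH1: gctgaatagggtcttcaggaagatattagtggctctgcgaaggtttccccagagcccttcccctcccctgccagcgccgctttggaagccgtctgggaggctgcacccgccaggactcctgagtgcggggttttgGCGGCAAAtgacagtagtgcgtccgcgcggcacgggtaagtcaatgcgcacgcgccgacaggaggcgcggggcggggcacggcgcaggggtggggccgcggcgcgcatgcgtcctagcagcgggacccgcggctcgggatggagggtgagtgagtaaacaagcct

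The motif was searched on both strands as TTTCCCGC, TTTCGCGC, TTTGCCGC or TTTGGCGC. A single annotated start was searched for each gene. The motif occurred in 4 of the 47 members with a promoter in the table (8.51%) and in 3.33% of all 27305 promoters. The 4 were EZH2, EZH1, SUZ12 and KDM1B, of which only EZH2 was called. In EZH2 it stands just after the annotated start. The motif TTTGAA, known as the cell cycle homology region, was in 4 member promoters (8.51%, against 15.4% of all), those of KDM2A, KDM4D, SUV39H2 and SUZ12. The core of the antioxidant response element that NRF2 binds, searched as TGACNNNGC, was in 3 (6.38%, against 13.6%), those of KDM4C, KMT2D and SETD6. Both were searched on either strand, and SUZ12, the member with 2 of the motifs, held them at places that did not overlap. A match is a description of these letters and not a measured binding site.

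The group of H3 lysine 4 writers and their relatives held 10 genes, of which 2 fell, SETD1B and KMT2A, and 0 rose. KMT2E stands in it by family, since its SET domain has no established activity on histones. SETD1B, a catalytic subunit of a COMPASS complex that trimethylates lysine 4 at promoters, had -0.25, -0.37 and -0.39 in LP-1/Cfz, against -0.05, 0.02 and 0.03 in LP-1. All LP-1/Cfz arrays were lower, by a log2 fold change of -0.34 (SE 0.0563, adjusted p = 0.0054) on a single probe set. Its paralogue SETD1A had -0.05 and did not pass. KMT2A (MLL1), which keeps HOX genes active, had a log2 fold change of -0.17 (adjusted p = 0.0412), and its 11 probe sets ran from -0.42 to 0.01, of which 3 fell. This call was lost in each of the 6 fits without 1 array, with adjusted p of 0.0625 to 0.132.

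The remaining genes of this group lay between -0.05 and 0.08. They include KMT2B and the enhancer enzymes KMT2C and KMT2D. KMT2D had -0.02, but its 6 probe sets ran from -0.21 to 0.31 and the highest of them rose (adjusted p = 0.0252). A mean near 0 for KMT2D therefore covers probe sets of opposite sign. A probe set that KMT2C shares with BAGE genes had -0.04 and did not pass.

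Both SUV39 enzymes, which trimethylate H3 lysine 9 in constitutive heterochromatin, fell. SUV39H2 had -0.21, -0.22 and -0.26 in LP-1/Cfz, against -0.02, 0.08 and -0.06 in LP-1 (log2 fold change -0.23, SE 0.0548, adjusted p = 0.0247). SUV39H1 had -0.21, -0.16 and -0.28 in LP-1/Cfz, against 0.02, 0.02 and -0.04 in LP-1 (log2 fold change -0.22, SE 0.0529, adjusted p = 0.0287). Neither gene overlapped between the lines. Both differences are small, and SUV39H1, on its single probe set, did not pass in the fit over probe sets (adjusted p = 0.0695). EHMT1 and EHMT2 (GLP and G9a), which mono- and dimethylate lysine 9 in euchromatin, had -0.10 and 0.01 and did not pass.

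SETD2, the enzyme that trimethylates H3 lysine 36 behind elongating RNA polymerase II, had -0.23, -0.30 and -0.41 on the LP-1/Cfz arrays, against 0.02, -0.02 and 0.00 on the LP-1 arrays. The lines were apart, with a log2 fold change of -0.31 (SE 0.0577, adjusted p = 0.00845), and 2 of its 3 probe sets, all of the _s_at kind, fell. SMYD2, which methylates lysine 36 and several proteins other than histones, had -0.16 (adjusted p = 0.0675). Its probe sets disagreed, since 1 fell (-0.38) while another had 0.12. DOT1L, the H3 lysine 79 methyltransferase, had -0.17 and did not pass (adjusted p = 0.0748), with LP-1/Cfz below LP-1 on all arrays.

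KMT5A (SET8), whose monomethyl mark on H4 lysine 20 is needed for replication and mitosis, was among the most even of the falls. It had -0.39, -0.38 and -0.42 in LP-1/Cfz, against -0.01, 0.01 and 0.00 in LP-1, so that arrays of 1 line differed by far less than the lines. The log2 fold change was -0.39 (SE 0.045, adjusted p = 0.000932), and 3 of its 4 probe sets fell (range -0.50 to -0.29). KMT5B, which adds further methyl groups to the same residue, had -0.11 and did not pass, with 1 probe set that fell (-0.31) and another at 0.18. KMT5C, its paralogue, had 0.06.

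Of the 7 SET domain genes with another or no settled histone residue, 1 fell. SETD9 had -0.24, -0.19 and -0.29 in LP-1/Cfz, against 0.09, -0.07 and -0.02 in LP-1 (log2 fold change -0.24, SE 0.0587, adjusted p = 0.0286). The lines did not overlap, but LP-1 replicate 1 lay well above the other LP-1 arrays. SETD6, which methylates the NF-kappaB subunit RELA, had 0.15, and the others lay between -0.11 and 0.10, with none past the test.

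KDM2B had -0.99, -0.98 and -1.12 on the LP-1/Cfz arrays, against 0.01, -0.02 and 0.01 on the LP-1 arrays. The gap between the lines was many times the distance among arrays of either. The log2 fold change was -1.03 (SE 0.0553, adjusted p = 2.13e-05), a 2.04-fold lower signal on its single probe set, which is again an _s_at one, and 143 of the 19775 genes had a lower value. KDM2B was the only member that still passed when the test was made against a minimum fold change of 1.2. Its paralogue KDM2A, which also removes methyl groups from H3 lysine 36 and binds unmethylated CpG islands, had -0.24, -0.23 and -0.16 in LP-1/Cfz, against -0.02, 0.02 and 0.00 in LP-1. All LP-1/Cfz arrays of KDM2A were lower, by a log2 fold change of -0.21 (SE 0.0485, adjusted p = 0.0228), and 1 of 3 probe sets fell. The KDM2A call was also lost when the arrays were quantile normalized again (-0.17, adjusted p = 0.0641).

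The promoter of KDM2B, the member with the largest difference, is given in the same way (RefSeq, GRCh38.p14, chr12:121580974-121581273, minus strand). This stretch holds none of the 3 motifs, so that no letter is in capitals, and other starts of the gene were not searched.
KDM2B: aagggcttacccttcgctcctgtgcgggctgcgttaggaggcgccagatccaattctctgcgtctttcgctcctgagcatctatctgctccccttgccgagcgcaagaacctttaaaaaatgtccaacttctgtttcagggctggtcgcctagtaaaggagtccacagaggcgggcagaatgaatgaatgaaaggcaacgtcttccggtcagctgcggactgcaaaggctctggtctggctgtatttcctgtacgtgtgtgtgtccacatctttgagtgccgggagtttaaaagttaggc

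KDM6B (JMJD3), which takes methyl groups off H3 lysine 27 and is known as a gene induced by inflammatory and stress signals, had 0.37, 0.47 and 0.19 on the LP-1/Cfz arrays, against 0.05, -0.12 and 0.07 on the LP-1 arrays. LP-1/Cfz was higher on every array, but replicate 3 of LP-1/Cfz was low in its group and replicate 2 of LP-1 low in its own, which makes this the widest spread among the called members. The log2 fold change was 0.34 (SE 0.0851, adjusted p = 0.0299). Its 5 probe sets ran from 0.17 to 0.51 and 2 of them rose. The call held in 1 of the 6 fits without 1 array, with an adjusted p of up to 0.102. KDM6A (UTX), the other demethylase of this residue and a tumour suppressor in myeloma, had -0.01 (95% confidence interval -0.17 to 0.14).

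**Figure D2:**
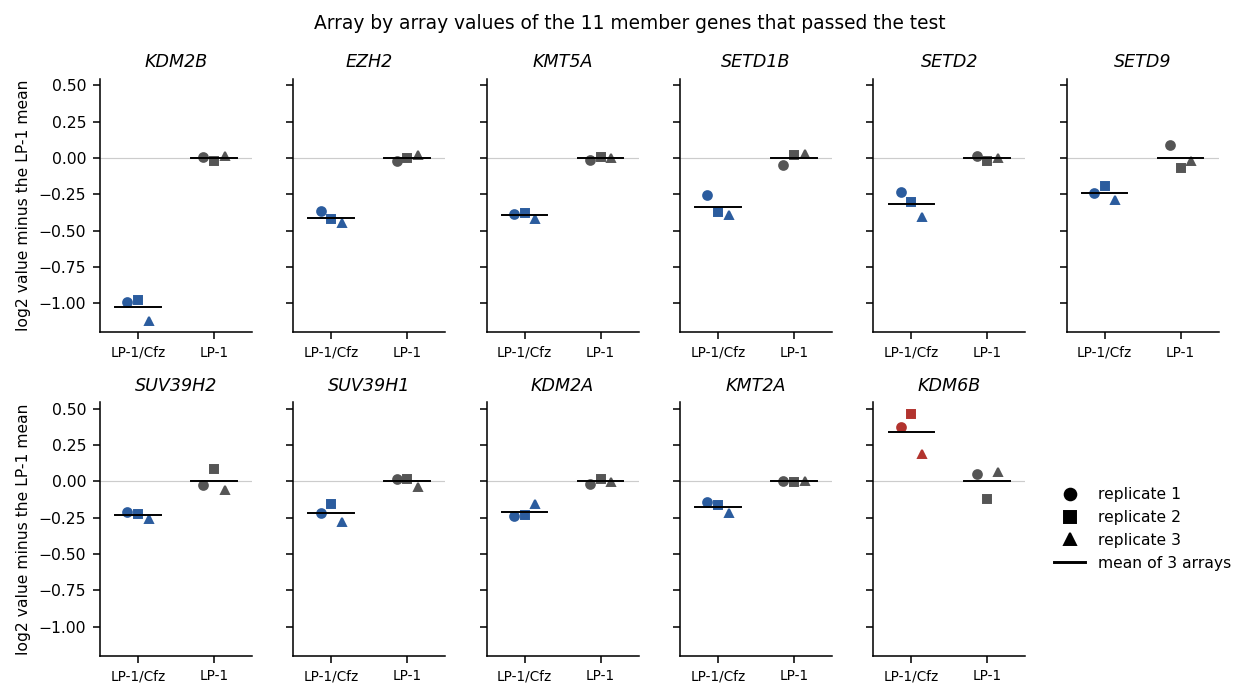
Log2 value of the gene less its mean over the LP-1 arrays (y axis) on each of the 3 LP-1/Cfz (left) and 3 LP-1 arrays (right) for the 11 member genes that passed. Marker shapes give the replicate number and bars the means. In no panel do the lines overlap, and KDM6B has the widest spread.

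None of the 5 H3 lysine 4 demethylases passed. KDM1A (LSD1) and KDM1B had 0.07 and -0.03. KDM5A, KDM5B and KDM5C, of which KDM5A and KDM5B have been tied to drug-tolerant states in other cancer cells, had 0.16, -0.02 and 0.03. All 5 probe sets of KDM5A were on the higher side (0.13 to 0.19) with 0 past the test, and the gene had an adjusted p of 0.133 over all arrays and of 0.0464 without LP-1/Cfz replicate 3. The H3 lysine 9 demethylase KDM3B had -0.02, and KDM4A, KDM4B, KDM4C and KDM4D, which act on lysines 9 and 36, lay between -0.09 and 0.08. KDM7A, which acts on lysines 9 and 27, had -0.02, KDM8 had -0.12, and the RNA genes KDM7A-DT and KMT2E-AS1 had 0.02 each. None of these passed.

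Of the 49 genes, 38 were read by more than 1 probe set, and the probe sets of a gene can read different transcript ends. The values of EZH2, KDM2B, SETD1B and SUV39H1 rest on 1 probe set each.

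**Figure D3:**
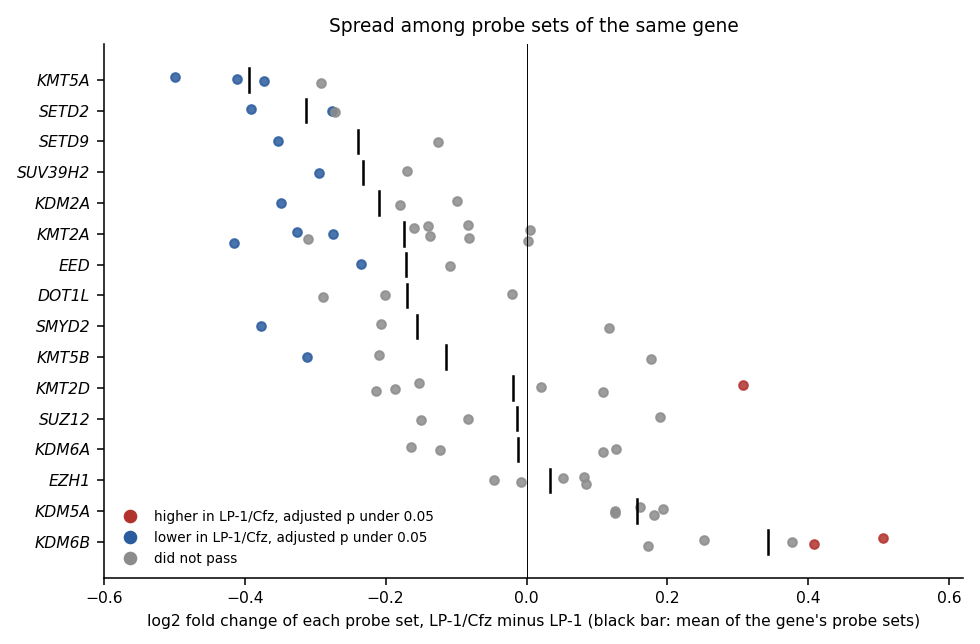
Log2 fold change of single probe sets, LP-1/Cfz minus LP-1 (x axis), for 16 member genes with several probe sets (rows), with black bars at the gene means. KMT5A, SETD2 and KDM6B have all probe sets on the same side of 0, whereas those of KMT2D run from -0.21 to 0.31.

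Of the 11 called members 3, KDM2B, SETD1B and KMT5A, lie close together on chromosome 12, with 4 measured genes between KDM2B and SETD1B and 32 between SETD1B and KMT5A in the gene order of RefSeq. From 10 genes before KDM2B to 10 genes after KMT5A there were 56 other measured genes. Of these 22 fell (39.3%) and 1 rose, with a median log2 fold change of -0.11, whereas on the rest of chromosome 12 142 of 976 genes fell (14.5%), 97 rose (9.94%), and the median was 0.03. The stretch was looked at after the values of the 3 members had been seen, and these counts carry no test. Without LP-1/Cfz replicate 3, 21 of the 56 fell and 0 rose, and over the 6 fits without 1 array 16 to 21 fell. KDM2B was the lowest gene of the stretch. The next lowest, P2RX4, had -0.50, and the genes on either side of KDM2B, RNF34 and ORAI1, had -0.45 and -0.42, all of which fell. These genes were chosen after their values were seen.

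**Figure D4:**
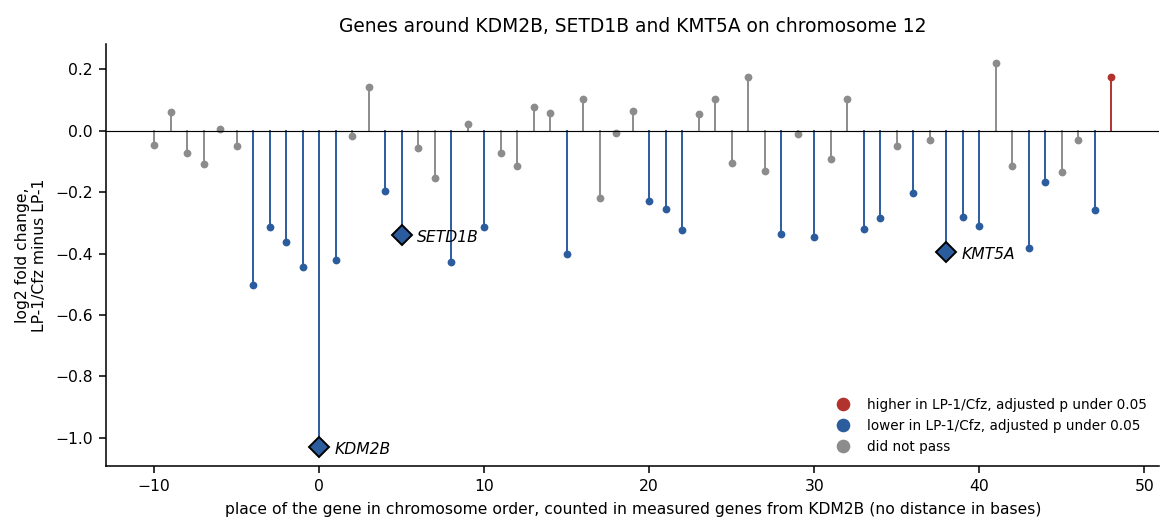
Log2 fold change, LP-1/Cfz minus LP-1 (y axis), of the measured genes around KDM2B, SETD1B and KMT5A on chromosome 12, in chromosome order (x axis, counted in genes). Diamonds are the 3 member genes. Blue points, which fell, are found all along the stretch beside genes near 0, and KDM2B lies below all of them.

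The 20 nearest measured genes of the other called members were counted in the same way, beside the 10.0% of all genes that fell and the 6.72% that rose. Around SUV39H2 on chromosome 10, 8 fell and 1 rose, with a median of -0.11, which is about as many as in the chromosome 12 stretch. Around KDM2A on chromosome 11, 6 fell and 0 rose, and around EZH2 on chromosome 7, 4 fell and 1 rose. The others had few called neighbours, with 2 lower and 1 higher around each of SETD2, SETD9 and KDM6B, 1 lower and 1 higher around KMT2A, and 1 lower and 2 higher around SUV39H1.

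Proteins that work with these enzymes were read through 8 lists written from general knowledge, of which 66 of 70 genes were measured. Of the 66, 18 fell and 5 rose, with a median of -0.04, so that 34.8% passed in either direction where 16.7% of all genes did (10.0% lower and 6.72% higher). The lists are short, and a single call in 9 or 12 genes is near those shares. Among 7 PRC2 partners 2 fell, PHF19 (-0.62, adjusted p = 0.000606), a Polycomb-like subunit that brings PRC2 to its targets, and its relative PHF1 (-0.22). Of the 2 probe sets of PHF1, 0 passed in the fit over probe sets. JARID2, the subunit that marks an alternative form of PRC2, rose (0.40, adjusted p = 0.00213). PHF19 had -0.69, -0.49 and -0.68 in LP-1/Cfz, against 0.01, -0.04 and 0.03 in LP-1. Its difference was larger than that of EZH2, while JARID2, with 0.35, 0.36 and 0.48 in LP-1/Cfz, against 0.02, -0.03 and 0.01 in LP-1, went the other way.

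Of 12 partners of the COMPASS complexes 3 fell, namely the core subunit ASH2L (-0.52, adjusted p = 0.000451), PSIP1, which tethers KMT2A to chromatin (-0.38), and the CpG-binding subunit CXXC1 of the SETD1 complexes (-0.30). PAGR1, found with KMT2C and KMT2D, rose (0.38). Among 9 partners in H3 lysine 9 methylation and heterochromatin 1 fell (11.1%, close to the share of all genes), UHRF1 (-0.55), which links this mark to the maintenance of DNA methylation, while the 3 HP1 genes CBX1, CBX3 and CBX5 lay between -0.02 and 0.04. Of 12 measured subunits of Polycomb repressive complex 1, which ubiquitinates histone H2A, PCGF6 (-0.45), CBX7 (-0.42), PCGF5 (-0.34) and PCGF1 (-0.19) fell and PHC1 (0.28) rose. PCGF1, named for its tie to the member KDM2B, is the PCGF protein of the complex that KDM2B brings to CpG islands. It had -0.19, -0.19 and -0.18 in LP-1/Cfz, against -0.02, 0.06 and -0.04 in LP-1. This was the smallest of the falls in the list (adjusted p = 0.0383), and 1 of its 2 probe sets passed.

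Of 7 LSD1 partners RCOR3 (-0.37) and HDAC1 (-0.17) fell, and of 7 other JmjC proteins the ribosomal oxygenases RIOX2 (-0.35) and RIOX1 (-0.29) fell. Among 9 arginine methyltransferases PRMT1 (-0.31), the main enzyme for asymmetric dimethylarginine, and PRMT7 (-0.21) fell, and PRMT3 (0.29) rose. The gene calls of HDAC1 and PRMT7 lay near the threshold (adjusted p = 0.042 and 0.0466). Each has a single probe set, which did not pass in the fit over probe sets. The NSD enzymes, which dimethylate H3 lysine 36, moved in both directions: NSD2 rose on 6 of 6 probe sets (0.78, adjusted p = 7.46e-05), and NSD3 (-0.42) and NSD1 (-0.34) fell.

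**Figure D5:**
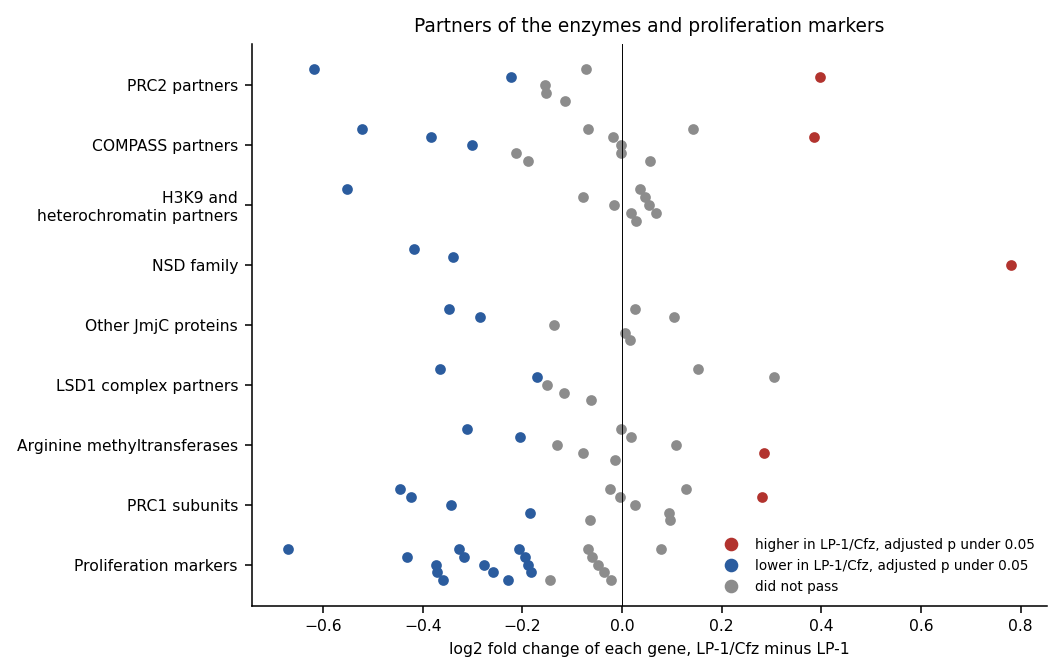
Log2 fold change, LP-1/Cfz minus LP-1 (x axis), of each measured gene in 8 lists of partner or related proteins and in the list of proliferation markers (rows); the vertical place within a row only separates points, and colour gives the call. The red point at 0.78 is NSD2, and 20 of the 21 proliferation markers lie below 0.

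EZH2, KMT5A and SUV39H1 are known to be made more in dividing cells, and many but not all markers of division were lower too. Of 21 proliferation markers 14 fell and 0 rose, where 10.0% of all genes fell and 6.72% rose. The median was -0.21, and the largest falls were those of MKI67 (-0.67), MCM5 (-0.43) and TYMS (-0.37). Of the 14, MCM2, MCM7 and PCNA had 0 probe sets that passed in the fit over probe sets. Their gene calls lay near the threshold (adjusted p = 0.0367, 0.0443 and 0.0442), as did those of AURKB (0.0371) and AURKA (0.0486). The other 7 did not pass, among them CCNA2 (-0.02), BIRC5 (-0.04), CCNB2 (-0.05) and PLK1 (-0.07), and CCNB1 on the higher side (0.08). E2F1, named for the motif searched above, had -0.32 (adjusted p = 0.00438). The summed value of the list ran from -5.74 to -4.05 on the LP-1/Cfz arrays and from -0.37 to 0.20 on the LP-1 arrays. Without LP-1/Cfz replicate 3, 9 of the 21 passed, while 16.1% of all genes did, close to the 16.7% with all arrays. Over the 6 fits without 1 array 6 to 10 passed. Fewer dividing cells and less RNA per cell cannot be told apart in these bulk samples, and the part of division in the falls of EZH2, KMT5A, SUV39H1 or SUV39H2 was not tested.

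Of the 14 measured plasma and B cell markers 4 rose, among them MZB1 (0.39) and SDC1 (0.38), and 2 fell, SLAMF7 (-2.17) and CD38 (-1.07). In either direction 42.9% of these passed, where 16.7% of all genes did (6.72% higher and 10.0% lower). Of 8 T and NK cell markers 25% passed, where 16.7% of all genes did. CD8A rose, though its single probe set did not pass in the fit over probe sets, and NCAM1 fell. The summed value of this list was -0.56 to 1.19 in LP-1/Cfz and -0.35 to 0.24 in LP-1. Of 6 myeloid and 7 stromal markers 0 passed, with summed values of -0.67 to 0.50 and 0.10 to 0.57 in LP-1/Cfz and of -0.08 to 0.08 and -0.01 to 0.01 in LP-1. Which markers are absent cannot be read from centred values.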

How the data were processed

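In all, 3 arrays of LP-1/Cfz and 3 of LP-1 were compared. The deposited table holds log2 values of 54613 probe sets, and the submitters' notes name RMA without a version. The values were centred for each probe set on a baseline not given in the sources used here. The authors' cutoff was a fold change of 1.7. Of the probe sets, 41091 name 1 gene in the array's annotation, 1801 several and 11721 none, and 41037 of the single-gene ones matched a RefSeq table by identifier, among them all 49 members. Promoters of 47 members matched a RefSeq table; SETD1B and DOT1L did not.

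Gene values are means of single-gene probe sets. The 2 lines were compared in limma 3.58.1 (lmFit, eBayes, two-sided, no covariate) under R 4.3.3, with Benjamini-Hochberg adjustment over 19775 genes, and again over 54613 probe sets. The fits were tested on simulated data with the spread of these arrays. Of genes changed 1.2-fold 20% were called, and of those changed 1.5-fold 72%. For probe sets these shares were 0% and 34%. A member that did not pass may thus still differ by a small fold. The number of arrays limits the precision. Probe sets that name several genes were left out of the gene values.

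Members, residue classes and lists were chosen with earlier results of these data known. Values array by array are given for PRC2 core genes and for the 8 called members with the largest change in each direction, and for partners up to 3 called genes in each direction of a list are named. The array values of KDM2A, PHF19, JARID2 and PCGF1 were added after they had been seen. Alternatives were other normalizations, array weights, robust eBayes, a minimum fold change, the replicate number as a block, other ways to summarise probe sets, and leaving out each array. Leaving out each array for the chromosome 12 stretch and the proliferation markers was added after seeing the data.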

Additional observations from a re-analysis of the deposited data

How the results depend on the processing

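Of 11 member genes and 20 member probe sets that passed, 1 of each (KDM2B) had a fold change of 1.7 or more, and 1 of each passed against a minimum fold change of 1.2. For the partner genes, of which 23 passed, the same settings gave 1 and 3. Leaving out 1 array in turn gave 5 to 9 member genes, 7 to 16 member probe sets, 16 to 21 partner genes, 16 to 21 other genes of the chromosome 12 stretch (23 with all arrays, 1 of them higher) and 6 to 10 proliferation markers (14 with all arrays). The share of all genes called went down too in these fits, least without LP-1/Cfz replicate 3 (16.1%, against 16.7% with all arrays). Probe sets with the suffix _s_at or _x_at, whose probes can match more than 1 transcript, made up part of the calls: without them 10 member probe sets passed, and KDM2B and EZH2, read by 1 such probe set each, and SETD2, read by 3, had none left. EED passed with array weights (adjusted p = 0.0244), quantile normalization (adjusted p = 0.0441), median centring (adjusted p = 0.0497) and the probe set of largest interquartile range (adjusted p = 0.0366). No called member changed direction under any alternative run. The 2 lines share replicate numbers, and nothing in the labels says that these pair samples. Deviations of same-numbered arrays correlated at -0.05, 0.13 and -0.01. With 3 arrays in each line this cannot decide whether the numbers pair samples. With the replicate number as a block 6 member genes, 15 member probe sets and 19 partner genes passed, and the members lost were KDM2A, KDM6B, KMT2A, SETD9 and SUV39H1. Centred values hide the signal over background, so that how far dim probes limit these differences is unknown.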
